A study of Mus musculus with 12 samples.

Results

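Collagen genes were followed in interscapular brown adipose tissue (BAT) of WT and *Txnip*-/- mice at 2 housing temperatures. The members are all genes of the expression table whose symbol has the form Col, a type number, a and a chain number, which gave 44 of 25124 genes. By type number they were placed in 4 classes. Types 1, 3, 5 and 11 gave 8 fibrillar collagens, types 4, 15 and 18 gave 8 basement membrane collagens, type 6 gave 6 beaded collagens, and every other type number gave 22 other collagens. Because the classes follow the type number alone, *Col2a1*, *Col24a1* and *Col27a1*, which encode fibril-forming chains, were counted among the other collagens. RNA-seq was made on male mice at 10 weeks of age, kept for 1 week at 23 °C (room temperature, RT) or 30 °C (thermoneutrality, TN), with 3 libraries for each genotype at each temperature. The mice were on a C57B/6J background, the WT mice are described as littermates, and *Txnip*, which encodes thioredoxin-interacting protein, is the gene lost, with no cell type named in the labels to which the loss is limited. Every library holds the RNA of all cells of the tissue, so more cells of a type and more RNA per cell cannot be told apart in any difference given here.

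Collagens are the main structural proteins of the extracellular matrix. Their chains carry a glycine in each triplet of residues, which lets them wind around each other into a helix. Fibrillar collagens assemble into the banded fibrils that give tissue its strength, type IV collagen forms the sheet-like network of the basement membrane that lies under endothelium and around each adipocyte, and type VI collagen forms beaded filaments that join the basement membrane to the matrix between cells. In adipose tissue, fibroblast-like stromal cells are the main source of fibrillar collagen, while endothelial cells, mural cells and adipocytes all deposit basement membrane.

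The libraries held between 29.93 and 47.44 M reads, and libraries of a group correlated with each other at an r of 0.985 to 0.993 across genes. Expression is given as TPM, a transcript abundance scaled for transcript length and for library, so that levels of different genes can be set side by side. At RT, *Txnip* stood at 613 ± 70.8 TPM in WT and 29.0 ± 5.59 in *Txnip*-/- (mean ± SD, n = 3), and at TN at 1131 ± 92.7 and 11.98 ± 2.12, so the targeted gene was low in every library labelled *Txnip*-/-. *Ucp1*, the uncoupling protein that marks brown adipocytes, was abundant in every library, at 3769.9 to 4366 TPM (WT) and 2527 to 3899.7 (*Txnip*-/-) at RT and at 621 to 1136 and 154 to 339 at TN.

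The classes differ in how far the glycine repeat of their coding sequences runs without a break. In GENCODE M21 transcripts, the longest uninterrupted run of glycine codons (GGN), each followed by a pair of any codons, held 337 to 344 triplets in the 8 fibrillar genes of types 1, 3, 5 and 11. In the type IV genes, which encode the network-forming chains, the longest run held 39 to 66 triplets, and 23 to 27 separate runs of at least 3 triplets were present. All such runs together held 426 to 444 triplets in the type IV genes and 353 to 365 in the fibrillar genes. The type IV repeat is thus broken more often but not shorter in total. *Col6a1* and *Col6a2* each held 87 triplets in their longest run and *Col6a3* held 45. Of the other collagens, the fibril-forming *Col2a1*, *Col27a1* and *Col24a1* held 339, 217 and 216. The 54 bases below cover the last 4 triplets of the longest run and the 6 codons that follow, shown so that the repeat and what follows it can be read side by side, and capitals mark every GGN codon in frame.
Col1a1: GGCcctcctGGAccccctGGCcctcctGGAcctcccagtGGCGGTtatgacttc
Col3a1: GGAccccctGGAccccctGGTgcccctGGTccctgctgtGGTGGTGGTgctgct
Col4a1: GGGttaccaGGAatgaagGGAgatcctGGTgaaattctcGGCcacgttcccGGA
Col6a1: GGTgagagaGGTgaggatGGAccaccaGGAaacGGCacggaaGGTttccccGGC
In *Col1a1* and *Col3a1* the stretch lies at codons 1170 to 1187 and 1184 to 1201, at the far end of the helix. In *Col4a1* it lies at codons 151 to 168, where a break in the repeat is followed by further runs, and in *Col6a1* at codons 505 to 522.

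In BAT of RT WT mice, basement membrane transcripts made up the largest share of collagen TPM when all 44 genes were counted. Of the 44 genes, 24 had a mean of at least 1 TPM over the 12 libraries and 20 lay below it, between 0 and 1.585 TPM in single libraries. These were *Col2a1*, *Col4a3*, *Col4a4*, *Col4a6*, *Col6a4*, *Col6a5*, *Col6a6*, *Col7a1*, *Col8a2*, *Col9a1*, *Col9a2*, *Col9a3*, *Col10a1*, *Col11a1*, *Col17a1*, *Col19a1*, *Col22a1*, *Col24a1*, *Col25a1* and *Col26a1*, many of them known from cartilage, skin or brain. Summed over all collagens, RT WT libraries held 482 ± 42.6 TPM (n = 3), of which basement membrane collagens took 49.6% ± 1.35, fibrillar collagens 30.2% ± 0.757, beaded collagens 13.7% ± 0.507 and other collagens 6.42% ± 0.790 (mean ± SD of percent). The genes with the highest level in RT WT were *Col4a1* (121 ± 11.2 TPM), *Col4a2* (97.9 ± 10.2) and *Col3a1* (67.2 ± 6.14), and the libraries of neighbours in this order did not overlap (113 to 133, 91.3 to 109.6 and 60.5 to 72.6). They were followed by *Col1a2*, *Col6a2*, *Col6a1* and *Col1a1*, at means between 21.66 and 33.05 TPM, where the ranges of *Col6a2* (26.5 to 28.9) and *Col6a1* (25.2 to 28.0) overlap.

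**Figure D1:**
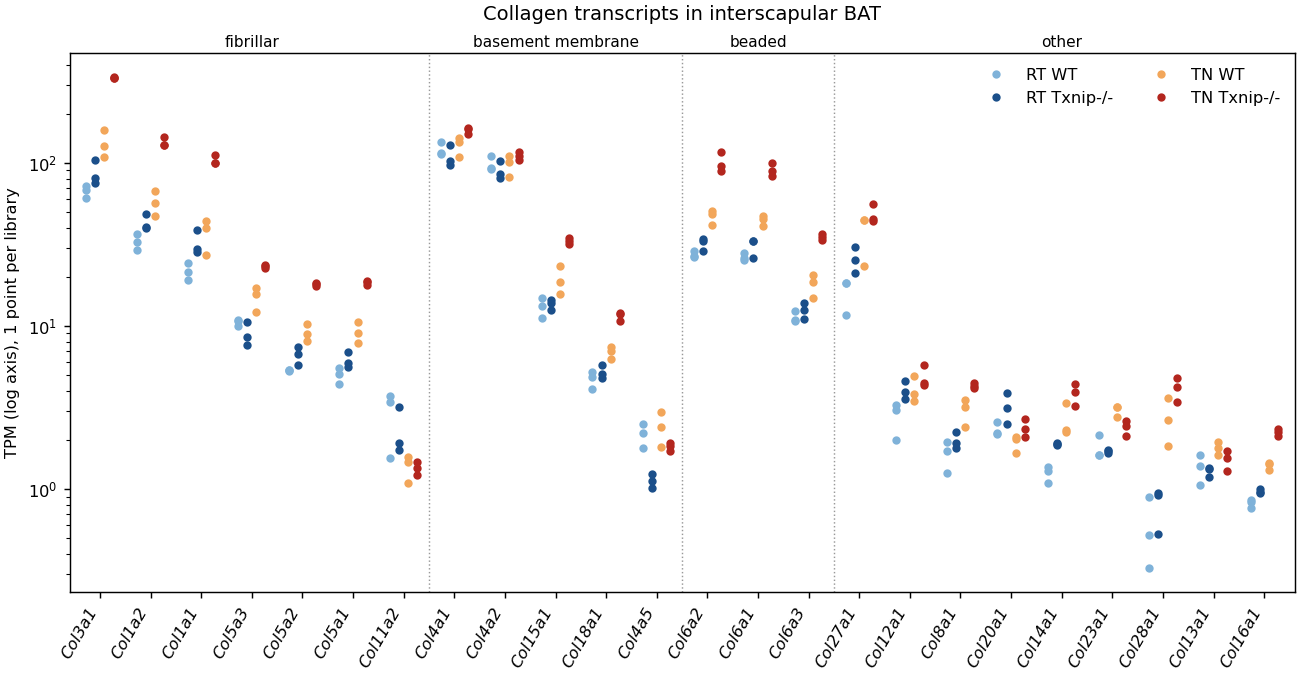
TPM of the 24 collagen genes with a mean of at least 1 TPM on a log axis, by class, with 1 point per library and 3 libraries per group. TN *Txnip*-/- libraries lie above all others for *Col1a1*, *Col1a2*, *Col3a1*, *Col5a1*, *Col5a2*, *Col5a3*, *Col6a1*, *Col6a2*, *Col6a3*, *Col15a1*, *Col18a1*, *Col8a1*, *Col16a1* and, by a small margin, *Col4a1*, and overlap other groups for *Col4a2*.

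The balance of the classes differed between the groups. The summed TPM of fibrillar collagens was 146 ± 13.3 (WT) and 186 ± 29.5 (*Txnip*-/-) at RT, and 261 ± 48.3 and 632 ± 15.8 at TN. That of basement membrane collagens was 239 ± 23.1, 219.5 ± 30.2, 255 ± 35.4 and 316 ± 12.8 in the same order. Fibrillar collagens thus stood at 2.42 times the TN WT mean in TN *Txnip*-/- and basement membrane collagens at 1.24 times. Fibrillar collagens took 50.5% ± 0.627 of collagen TPM in TN *Txnip*-/- against 37.8% ± 2.52 in TN WT, and basement membrane collagens 25.3% ± 0.503 against 37.1% ± 0.632. The libraries of these groups did not overlap in either share. *Col3a1* held a mean share of 13.9% of collagen TPM in RT WT and 26.6% in TN *Txnip*-/-, and *Col4a1* 25.0% and 12.7%. These shares are descriptions of summed values and carry no test. They rest on genes that share exon bases with another gene, among them *Col3a1*, *Col4a1*, *Col4a2*, *Col5a1* and *Col15a1*. Without all such genes, the fibrillar share was 42.5% in RT WT, 40.2% in TN WT and 47.3% in TN *Txnip*-/-, the beaded share 37.8%, 36.9% and 38.1%, and the basement membrane share 4.18%, 3.29% and 2.33%. The largest share in RT WT was then fibrillar and not basement membrane. That removal took out *Col4a1* and *Col4a2*, which held 25.0% and 20.3% of collagen TPM in RT WT. Their exons share 22 and 65 bases with genes on the opposite strand, and their transcripts are 6561 and 6400 bases long. Of the basement membrane class, only *Col18a1*, *Col4a4*, *Col4a5* and *Col4a6* remained.

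**Figure D2:**
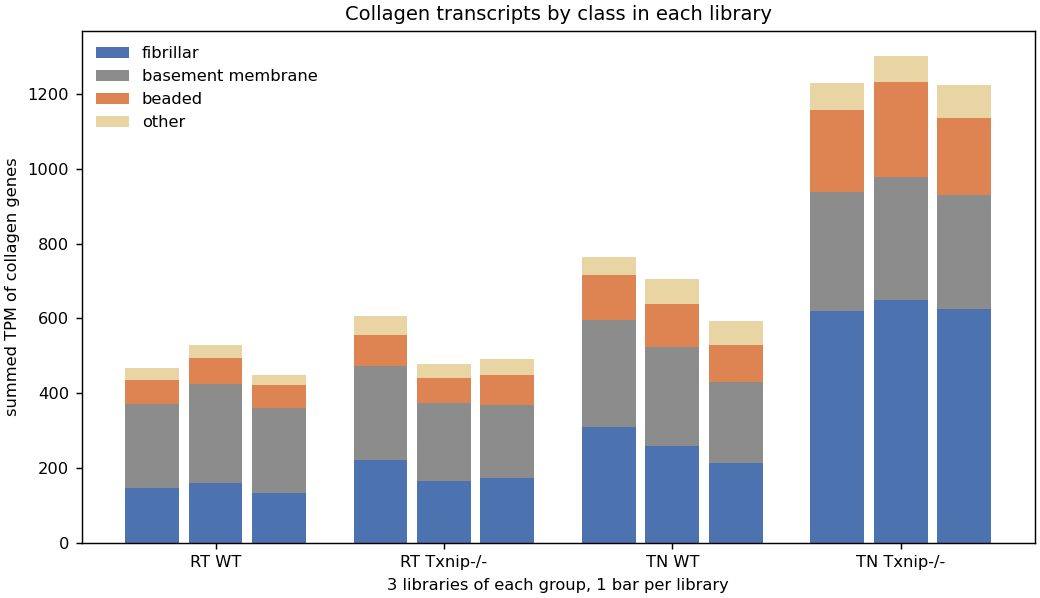
Summed TPM of all 44 collagen genes in each of the 12 libraries, stacked by class, with 1 bar per library. The 3 TN *Txnip*-/- libraries reach 1223 to 1302 TPM against 593 to 763 in TN WT, and most of the added height is fibrillar and beaded collagen.

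Genotypes were first compared at RT, which asks whether loss of *Txnip* changes collagen expression at the standard housing temperature. Of the 44 genes, 23 had a mean of at least 1 TPM in the 6 libraries and were tested with limma on log2(TPM + 1). A call needed a rise of more than 25% or a fall of more than 20%, together with an adjusted p (Benjamini-Hochberg) under 0.05. No collagen was called, where 1.49% of the 11980 genes tested were called in either direction, although 9 collagens had an unadjusted p under 0.05, as did 16% of all genes tested. The median difference (*Txnip*-/- minus WT) over the 23 genes was 0.18, and 0.03 over all genes tested.

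Of the 7 fibrillar genes tested, 5 had a positive difference in RT *Txnip*-/- and none passed the adjustment. *Col1a1*, which encodes the alpha 1 chain of type I collagen (chr11:94936224-94953042, plus strand), had 21.5, 24.2 and 19.3 TPM in RT WT and 39.0, 29.8 and 28.5 in RT *Txnip*-/-. Its 3 *Txnip*-/- libraries lay above the 3 WT libraries, and the difference was 0.55 ± 0.13 on the log2(TPM + 1) scale (SE, adjusted p = 0.103). *Col1a2*, the partner chain of type I (chr6:4505618-4541543, plus strand), had 32.8, 36.9 and 29.4 TPM in WT and 48.3, 39.7 and 40.3 in *Txnip*-/-. *Col3a1*, which encodes the chain of type III collagen (chr1:45311538-45349706, plus strand), had 68.3, 72.6 and 60.5 and 104, 75.7 and 80.3. Neither was called (adjusted p = 0.167 and 0.235), though in each the groups did not overlap. Such separation in the same direction was present in 8 of the 23 collagens tested and in 15.1% of all genes tested, with *Col5a1*, *Col5a2*, *Col12a1*, *Col14a1* and *Col27a1* as the others. *Col5a3* went the other way, at −0.23 ± 0.12 (adjusted p = 0.400), and its groups overlapped.

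The 3 type IV genes tested at RT, *Col4a1*, *Col4a2* and *Col4a5*, had negative differences. *Col4a1* and *Col4a2* encode the alpha 1 and alpha 2 chains that together build the common form of type IV collagen. *Col4a1* had 113, 133 and 115 TPM in RT WT and 128, 102 and 96.4 in RT *Txnip*-/-, and *Col4a2* had 91.3, 109.6 and 92.7 and 103, 85.7 and 81.1. The groups overlapped for both genes, with differences of −0.15 ± 0.12 and −0.12 ± 0.11 (95% intervals −0.43 to 0.12 and −0.38 to 0.13). *Col4a5*, which encodes a chain found in specialised basement membranes (chrX:141475419-141689235, plus strand), was the collagen with the lowest adjusted p at RT. It had 2.49, 2.21 and 1.78 TPM in RT WT and 1.24, 1.02 and 1.13 in RT *Txnip*-/-, so its groups did not overlap and *Txnip*-/- was lower, by −0.57 ± 0.12 (adjusted p = 0.0729). It was not called in this fit, but it was called lower when all 12 libraries entered 1 fit (adjusted p = 0.0428) and on the log-scale values that the authors deposited (adjusted p = 0.0246), where another transcript of the gene was counted.

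At TN, 12 collagens rose in *Txnip*-/- and none fell. These were 12 of the 24 tested, where 6.49% of the 12891 genes tested were called higher, and 15 had all 3 *Txnip*-/- libraries above all 3 WT libraries, where 17.7% of all genes had. The median difference was 0.46 over the collagens and 0.0078 over all genes tested. The calls covered 6 of 7 fibrillar collagens tested, 3 of 3 beaded, 2 of 5 basement membrane and 1 of 9 other collagens.

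**Figure D3:**
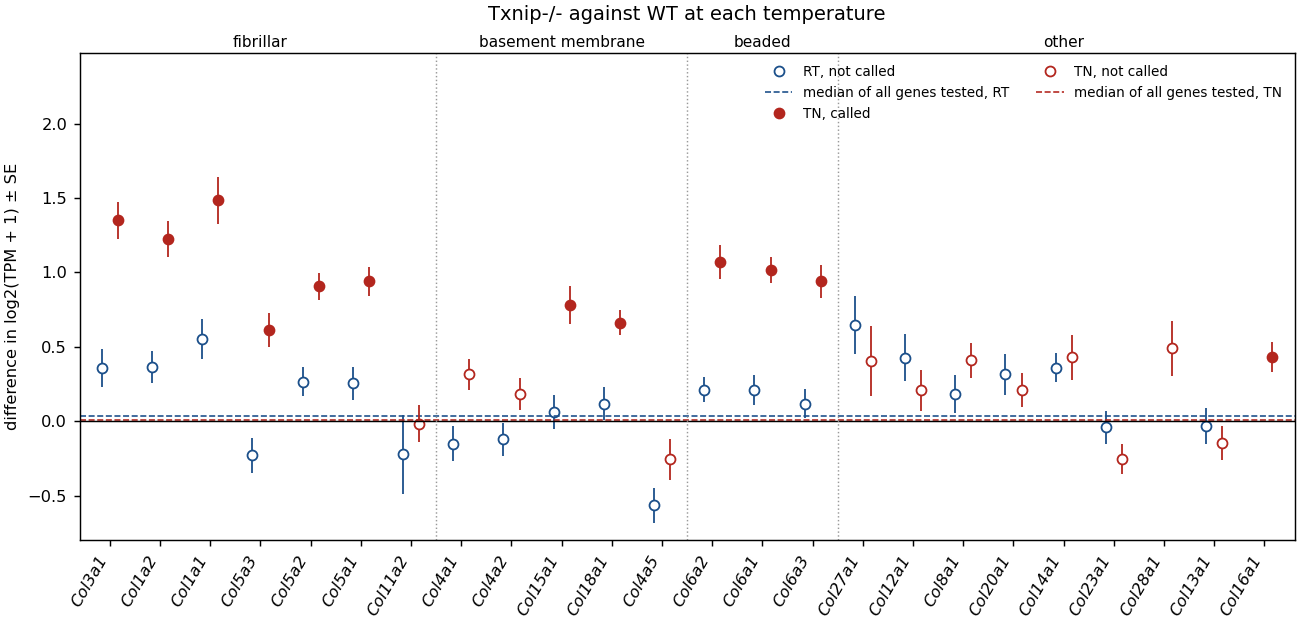
Difference of *Txnip*-/- minus WT in log2(TPM + 1) with its SE for each collagen, at RT (blue) and TN (red), with filled points for called genes and dashed lines at the median of all genes tested. The fibrillar and beaded genes other than *Col11a2* lie between 0.61 and 1.48 at TN, and no point is filled at RT.

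The type I and type III genes showed the largest differences. *Col1a1* had 44.1, 39.8 and 27.4 TPM in TN WT and 99.5, 111 and 100.4 in TN *Txnip*-/-. The lowest *Txnip*-/- library was above the highest WT library by more than the whole WT range, and the ratio of means was 2.80 (difference 1.48 ± 0.16, adjusted p = 0.00351). *Col3a1* had 159.7, 126 and 109 TPM in WT and 331, 333 and 334 in *Txnip*-/-. The 3 *Txnip*-/- libraries were nearly equal, with an SD of 1.40 TPM against 25.7 in WT (ratio of means 2.53, difference 1.35 ± 0.13, adjusted p = 0.00297). *Col3a1* was the collagen with the highest level in this group. Its mean was also the highest in TN WT, at 131.7 TPM against 128.3 for *Col4a1*, where the libraries of these genes overlapped. *Col1a2* had 67.6, 56.6 and 47.6 TPM in WT and 129, 144 and 129.6 in *Txnip*-/- (ratio 2.34, difference 1.23 ± 0.12, adjusted p = 0.00302). All these changes kept their call when any 1 library was left out.

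Type V chains, which are incorporated into type I fibrils and limit their width, were called higher as well, with smaller differences than the type I and III genes. *Col5a1* (chr2:27886425-28039510, plus strand) had 10.5, 9.09 and 7.90 TPM in TN WT and 17.9, 18.6 and 18.8 in TN *Txnip*-/- (difference 0.94 ± 0.10, adjusted p = 0.00351). *Col5a2* (chr1:45374331-45503282, minus strand) had 10.3, 8.97 and 8.13 and 17.5, 17.97 and 18.3 (difference 0.91 ± 0.09, adjusted p = 0.00302). Their groups did not overlap, with ratios of means of 2.005 and 1.96. *Col5a3* had 17.0, 15.7 and 12.1 and 23.6, 23.3 and 22.6, a ratio of 1.55 (adjusted p = 0.0180), and lost its call without TN *Txnip*-/- replicate 1 (adjusted p = 0.0662) or replicate 2 (0.0611). *Col11a2*, a chain of the cartilage type XI collagen, was low in all groups and did not differ detectably at TN (−0.02 ± 0.12, 95% interval −0.30 to 0.27). Its partner *Col11a1* stayed at or below 0.243 TPM in every library.

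The 3 main beaded collagens rose together. *Col6a1* (chr10:76708792-76726044, minus strand) had 47.0, 45.6 and 40.8 TPM in TN WT and 88.7, 100.5 and 83.7 in TN *Txnip*-/-, and *Col6a2* (chr10:76595756-76623404, minus strand) had 51.0, 48.5 and 41.6 and 95.9, 116 and 88.5. The groups lay far apart in both, with ratios of 2.05 and 2.13 (differences 1.015 ± 0.09 and 1.07 ± 0.12, adjusted p = 0.00241 and 0.00366). *Col6a3*, the longest chain of type VI and the one from which the adipose peptide endotrophin is cleaved, had 20.7, 18.6 and 14.8 and 33.8, 36.7 and 35.0 (difference 0.94 ± 0.11, adjusted p = 0.00551). The RT levels of these genes were lower and their RT groups overlapped, at 25.2 to 28.0 TPM in WT and 26.1 to 33.3 in *Txnip*-/- for *Col6a1*. *Col6a4*, *Col6a5* and *Col6a6* stayed near or below 1 TPM, with a highest value of 1.13 TPM for *Col6a6*.

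Of the 5 basement membrane collagens tested at TN, 2 were called. *Col15a1* and *Col18a1* encode proteoglycan collagens that lie at the outer face of basement membranes, and *Col18a1* is the source of endostatin. *Col15a1* (chr4:47208012-47313165, plus strand) had 23.5, 18.7 and 15.6 TPM in TN WT and 32.0, 33.4 and 34.7 in TN *Txnip*-/- (difference 0.78 ± 0.13, adjusted p = 0.0125). *Col18a1* (chr10:77052179-77166530, minus strand) had 6.30, 7.39 and 7.01 and 10.7, 11.8 and 12.01 (difference 0.66 ± 0.08, adjusted p = 0.00608). Both were called, and in both the groups did not overlap. *Col4a1* (chr8:11198423-11312826, minus strand) had 141, 135 and 108 TPM in WT and 162, 165 and 149.5 in *Txnip*-/-, which did not overlap either, but the difference of 0.31 ± 0.10 was not called (adjusted p = 0.106). *Col4a2* (chr8:11312805-11449287, plus strand) had 109, 101 and 82.4 and 109, 117 and 104, which overlapped (difference 0.18 ± 0.11, 95% interval −0.06 to 0.43, adjusted p = 0.339). The upper ends of the 95% intervals of *Col4a1* (0.56) and *Col4a2* (0.43) lie below the lower ends of those of *Col1a1* (1.12), *Col1a2* (0.95) and *Col3a1* (1.06). *Col4a5* was at −0.26 ± 0.14 (adjusted p = 0.293), again with the lower mean in *Txnip*-/-.

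Among the other collagens only *Col16a1* was called at TN. *Col16a1*, a fibril-associated collagen, had 1.43, 1.44 and 1.32 TPM in TN WT and 2.35, 2.11 and 2.23 in TN *Txnip*-/-. The groups did not overlap, but the difference of 0.43 ± 0.10 (adjusted p = 0.0347) lost its call when any 1 of the 6 libraries was left out, with an adjusted p of 0.0696 to 0.13. The call was also lost without the filter (adjusted p = 0.0690), with the replicate number as a block (0.0817) and, with a rise under 25%, on the authors' log-scale values. *Col27a1*, the most abundant gene of this class, had 23.3, 44.9 and 44.5 and 45.0, 44.0 and 55.6. TN WT replicate 1 stood well below the other WT libraries, the groups overlapped, and the gene was not called (0.40 ± 0.24, adjusted p = 0.336). *Col8a1*, a short-chain collagen of vessel walls and endothelium, was higher in all 3 *Txnip*-/- libraries (4.15 to 4.50 TPM against 2.40 to 3.52) but was not called (adjusted p = 0.0708). *Col12a1* and *Col14a1*, which bind to the surface of type I fibrils, and *Col20a1* and *Col28a1* had positive differences of 0.21, 0.43, 0.21 and 0.49 that were not called. The membrane-spanning collagens *Col23a1* and *Col13a1* had negative ones, −0.25 and −0.15, also not called.

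The housing temperatures were compared within each genotype, on all 12 libraries, which asks how collagen expression differs between a warm and a standard cage. The median of all genes tested was itself higher at TN, by 0.18 in WT and 0.15 in *Txnip*-/- on the log2(TPM + 1) scale. Differences relative to it, taken after each library was centred on its median, are therefore given beside the others. In WT, 18 of the 24 collagens tested were called higher at TN and 1 lower, where 31.4% of the 12486 genes tested were called higher and 6.39% lower. After centring, 13 were called higher and 2 lower, where 15.4% and 14.7% of all genes were. In *Txnip*-/-, 19 of 24 were called higher and 0 lower, where 30.9% of all genes were called higher and 8.27% lower. After centring, 17 were called higher and 2 lower, where 18.4% and 19.5% of all genes were, so that 89.5% of the collagen calls and 48.5% of all calls were in the higher direction. The counts of both genotypes include calls of *Col16a1* and *Col28a1*, which passed the filter only through the TN groups where they are high. Those calls add no support to the counts. The median difference over the collagens was 0.57 in WT and 0.95 in *Txnip*-/-, and 0.39 and 0.76 after centring. Cell markers differed between temperatures too. In WT, 7 of 9 fibroblast, 5 of 7 endothelial and 5 of 6 macrophage markers were called higher at TN and none lower, and 6, 1 and 5 after centring. The counts in *Txnip*-/- were 7 of 9, 7 of 7 and 6 of 6, and 7, 5 and 6 after centring, again with none lower. Of 7 mural markers, 3 were called higher and 1 lower in WT (2 and 1 after centring), and 2 higher and 0 lower in *Txnip*-/- (2 and 1 after centring). Of 5 Schwann cell markers, 0 were called higher and 1 lower in WT (0 and 1 after centring), and 2 higher and 0 lower in *Txnip*-/- (2 and 1 after centring). Brown adipocyte markers had 1 of 6 called higher and 2 lower in WT (0 and 3 after centring), and 0 higher and 3 lower in *Txnip*-/- (0 and 4 after centring). Skeletal muscle markers had 0 of 5 called in WT, and all 5 were called lower at TN in *Txnip*-/-, with and without centring. *Ckm*, *Myh4* and *Tnnt3* among these passed the filter on the 12-library mean only through RT *Txnip*-/-, where they are high. Their calls add no support to that count. *Sox10*, a Schwann cell marker called higher in *Txnip*-/-, had a mean of 0.994 TPM in RT *Txnip*-/- and 1.34 in RT WT. The part of these cells in the collagen differences was not tested.

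**Figure D4:**
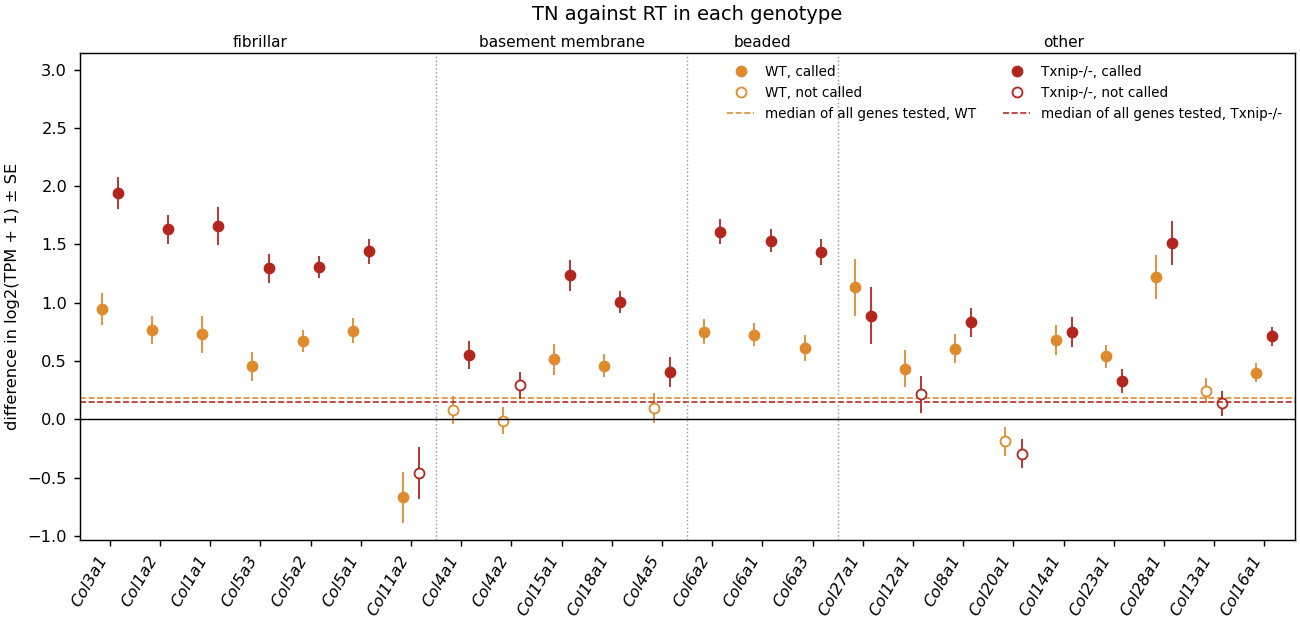
Difference of TN minus RT in log2(TPM + 1) with its SE for each collagen, in WT (orange) and *Txnip*-/- (red), with filled points for called genes and dashed lines at the median of all genes tested. The fibrillar genes other than *Col11a2*, and the beaded genes, lie above the dashed lines in both genotypes and higher in *Txnip*-/-. In WT, *Col4a1*, *Col4a2*, *Col4a5*, *Col11a2* and *Col20a1* lie below the line.

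Type I, III and VI genes were called higher at TN in both genotypes, from the RT and TN values given above. *Col3a1* was higher at TN in WT by 0.95 ± 0.14 (adjusted p = 0.000356), and by 0.76 after centring. In *Txnip*-/- it was higher by 1.94 ± 0.14 (adjusted p = 6.64e-06), and by 1.75 after centring, with a ratio of mean TPM of 3.84 against 1.96 in WT. *Col1a1* was higher by 0.73 ± 0.16 in WT and by 1.66 ± 0.16 in *Txnip*-/- (adjusted p = 0.00349 and 2.27e-05), and *Col6a2* by 0.75 ± 0.11 and 1.61 ± 0.11 (adjusted p = 0.000304 and 6.64e-06). All these were called in both genotypes and after centring. *Col15a1*, *Col18a1*, *Col5a3* and *Col16a1* were called in WT before centring but not after it, at centred differences of 0.33, 0.28, 0.27 and 0.22, whereas in *Txnip*-/- all of them were called after it.

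No type IV gene was called in WT. *Col4a5* was at 0.10 ± 0.13, and at −0.09 after centring. There, *Col4a1* and *Col4a2* were at 0.08 ± 0.12 and −0.01 ± 0.12 and were not called, and after centring their differences were −0.10 and −0.19. The signs of *Col4a1* and *Col4a5* thus depend on the scaling. In *Txnip*-/-, *Col4a1* was called higher (0.55 ± 0.12, adjusted p = 0.00279, and 0.36 after centring) and *Col4a2* was not (0.29 ± 0.12, adjusted p = 0.0527). *Col4a5* was called higher in *Txnip*-/- (0.41 ± 0.13, adjusted p = 0.0192), from 1.02 to 1.24 TPM at RT to 1.71 to 1.91 at TN. It lost that call after centring (0.22) and without RT *Txnip*-/- replicate 2 (adjusted p = 0.0648) or TN *Txnip*-/- replicate 1 (0.0517) or 3 (0.0547).

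Among the 9 other collagens tested, 7 were called higher at TN in WT and 6 in *Txnip*-/-, where 31.4% and 30.9% of all genes were. After centring, 5 were called higher and 1 lower in each genotype. *Col28a1*, a collagen with von Willebrand factor A domains found around peripheral nerves, had 0.521, 0.890 and 0.329 TPM in WT at RT and 2.67, 3.61 and 1.84 at TN, and in *Txnip*-/- 0.923, 0.528 and 0.948 at RT and 4.21, 3.42 and 4.77 at TN. All TN libraries lay above all RT libraries, by 1.22 ± 0.19 in WT and 1.51 ± 0.19 in *Txnip*-/- (adjusted p = 0.000512 and 8.27e-05). Its RT means were under 1 TPM, as were those of *Col16a1*, so both genes passed the filter over 12 libraries only through the TN groups where they are high, and neither was tested between genotypes at RT. The calls of *Col28a1* and *Col16a1* add no support to the counts of this class. *Col27a1* was higher at TN by 1.13 ± 0.24 in WT and 0.89 ± 0.24 in *Txnip*-/- (adjusted p = 0.00294 and 0.00981), with RT values of 18.4, 18.4 and 11.8 TPM in WT and 30.6, 21.1 and 25.4 in *Txnip*-/-. *Col8a1* and *Col14a1* were called higher in both genotypes, at 0.61 and 0.68 in WT and 0.83 and 0.75 in *Txnip*-/-. *Col23a1* was called higher in both genotypes (0.54 in WT and 0.33 in *Txnip*-/-). In *Txnip*-/- it lost the call without RT *Txnip*-/- replicate 1 (0.32), or TN *Txnip*-/- replicate 1 (0.32) or 3 (0.28), where the rise was under 25% or the adjusted p was 0.0615, with upper-quartile normalization (0.27) and after centring (0.14). *Col12a1* was called higher in WT (0.43, adjusted p = 0.0366) but not after centring (0.25), without the filter (adjusted p = 0.0641) or with upper-quartile normalization (0.0766), nor without RT WT replicate 3 (adjusted p = 0.149), TN WT replicate 1 (0.136) or TN WT replicate 3 (0.0584).

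*Col11a2* went against the other fibrillar genes. It had 1.55, 3.42 and 3.74 TPM in RT WT and 1.09, 1.58 and 1.46 in TN WT, where RT WT replicate 1 overlapped the TN libraries. It was called lower at TN in WT (−0.67 ± 0.22, adjusted p = 0.0256), a call lost without RT WT replicate 2 (adjusted p = 0.091), RT WT replicate 3 (0.102) or TN WT replicate 1 (0.0809). In *Txnip*-/- it had 3.20, 1.92 and 1.74 at RT and 1.46, 1.22 and 1.35 at TN and was not called (−0.46), but it was called lower after centring (−0.65) and without RT WT replicate 1 (adjusted p = 0.0263). *Col20a1* was not called in either genotype, but it was called lower after centring in WT (−0.37) and *Txnip*-/- (−0.48). It was also called lower in *Txnip*-/- with upper-quartile normalization (−0.35, adjusted p = 0.0348) and without RT *Txnip*-/- replicate 2 (−0.41, adjusted p = 0.0200).

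Whether the genotype effect differed between temperatures was tested as the interaction, the difference at TN minus the difference at RT. No collagen of the 24 was called by limma at an adjusted p under 0.05, 13 had an unadjusted p under 0.05, as did 12.6% of all genes tested, and 0.00801% of all genes tested were called, which is *Txnip* alone. The interaction was positive in 19 of the 24 collagens, with a median of 0.39, where the median of all genes was −0.02. It was positive in all 7 fibrillar, all 5 basement membrane and all 3 beaded collagens tested, with medians of 0.84, 0.47 and 0.82, and in 4 of 9 other collagens (−0.11). The lowest adjusted p was that of *Col6a1* (0.81 ± 0.14) and *Col6a2* (0.86 ± 0.15), at 0.0776 for both. *Col3a1* had 0.99 ± 0.20 (95% interval 0.57 to 1.42, adjusted p = 0.115) and *Col1a1* 0.93 ± 0.23 (0.43 to 1.43, adjusted p = 0.170). With the adjustment over all genes, the larger collagen difference at TN than at RT is thus not shown for any member.

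Chains that are built into the same protein were set against each other as ratios of TPM within each library. *Col6a1* to *Col6a2* stood at 0.964 ± 0.0259 (WT) and 0.962 ± 0.0462 (*Txnip*-/-) at RT, and at 0.947 ± 0.0295 and 0.912 ± 0.0408 at TN (mean ± SD, n = 3), with ranges that overlap throughout. *Col6a3* to *Col6a1* was 0.429 ± 0.0165, 0.404 ± 0.0247, 0.404 ± 0.0385 and 0.388 ± 0.0273 in the same order. The ranges of this ratio overlapped as well. *Col1a1* to *Col1a2* was 0.653 to 0.657 in RT WT and 0.577 to 0.702 in TN WT, below the 0.707 to 0.808 of RT *Txnip*-/- and the 0.772 to 0.775 of TN *Txnip*-/-. At each temperature no *Txnip*-/- library fell within the range of its WT group. *Col4a1* to *Col4a2* was 1.22 to 1.24 (WT) and 1.19 to 1.24 (*Txnip*-/-) at RT, and 1.29 to 1.34 and 1.41 to 1.48 at TN. It was thus higher in every TN library than in any RT library, and highest in TN *Txnip*-/-. These ratios were not tested.

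Some collagen genes are neighbours in the genome. *Col4a1* and *Col4a2* lie head to head on chromosome 8, and their annotated first exons overlap by 22 bases (GRCm38, chr8:11312805-11312826), shown on the plus strand because the annotated starts of both type IV genes lie at its ends.
Col4a1 and Col4a2 start overlap: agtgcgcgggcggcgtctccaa
*Col3a1* and *Col5a2* lie tail to tail on chromosome 1, 24624 bases apart, and both were called higher at TN in *Txnip*-/-, by 1.35 and 0.91. *Col6a2* and *Col6a1* follow each other on chromosome 10 with 85387 bases between them and were also both called. *Col4a4* and *Col4a3*, another head-to-head pair on chromosome 1, stayed at or below 0.644 TPM in every library, as did *Col4a6* beside *Col4a5* on chromosome X at or below 0.105 TPM. The 44 genes lie on 15 chromosomes, with 7 on chromosome 1 and 6 on chromosome 9.

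Since 6 of the 7 fibrillar genes tested were called higher at TN in *Txnip*-/-, all but *Col11a2*, the bases before their start sites are shown for *Col3a1* and *Col1a2*, the fibrillar members with the highest levels in TN *Txnip*-/-, for which RefSeq (GRCm38.p6) gave a promoter window. Such windows, which span the start site, matched 35 of the 44 genes, with none for *Col1a1* and *Col5a2*. They were searched on both strands for 4 motifs, none of which contains another: CCAAT (the core of the CCAAT box), TATAAA (the TATA box), GGGCGG (the GC box) and CAGACA (a sequence bound by Smad proteins). The 200 bases before the start site are printed 5′ to 3′ on the plus strand, at chr6:4505418-4505617 for *Col1a2* and chr1:45311338-45311537 for *Col3a1*, and capitals mark the motifs.
Col1a2: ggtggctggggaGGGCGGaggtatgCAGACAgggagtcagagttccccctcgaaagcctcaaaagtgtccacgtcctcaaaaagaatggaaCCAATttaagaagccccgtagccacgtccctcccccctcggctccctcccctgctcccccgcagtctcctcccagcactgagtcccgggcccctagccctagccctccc
Col3a1: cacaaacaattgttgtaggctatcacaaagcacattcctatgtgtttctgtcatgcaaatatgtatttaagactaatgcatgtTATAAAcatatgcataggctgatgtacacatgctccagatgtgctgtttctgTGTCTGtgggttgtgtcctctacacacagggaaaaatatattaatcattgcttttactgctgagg
In *Col1a2* the capitals are the GC box, the Smad sequence and the CCAAT box, which begin 188, 175 and 109 bases before the start. In *Col3a1* they are the letters TATAAA, 117 bases before it, and the reverse complement of the Smad sequence, 65 bases before it. The windows of these genes had GC contents of 61.0% and 37.7%. Over the 35 collagen windows, CCAAT was present in 37.1%, TATAAA in 14.3% and CAGACA in 22.9%, against 37.4%, 13.6% and 21.0% of 32851 windows of all genes. GGGCGG was present in 62.9% of the collagen windows and 35.7% of all windows. These matches describe letters only, and binding was not measured at them here.

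Genes that act on collagen were read from lists written with earlier results of these data known. At RT none of the 51 list genes tested was called by limma in the 5 lists below, where 1.49% of all genes tested were called. An unadjusted p under 0.05 was present for 8 of the 51 and for 16% of all genes, so the shares were close. None was called for the interaction, where 0.00801% of all genes were. At TN the enzymes and chaperones that modify and fold the chains had 2 of 18 called higher, none lower and a median of 0.20. Over all genes, 6.49% were called higher and the median was 0.0078, which also applies to the lists that follow, so the share in this list was near that of all genes. *Fkbp10*, a collagen chaperone of the endoplasmic reticulum, had 3.92, 3.57 and 3.53 TPM in TN WT and 6.10, 7.66 and 6.22 in TN *Txnip*-/- (difference 0.71 ± 0.10, adjusted p = 0.00818). *P3h3*, of the prolyl 3-hydroxylase family, was the other (difference 0.33 ± 0.07, adjusted p = 0.0316). *Serpinh1*, which encodes the collagen chaperone HSP47, did not pass at 0.17 ± 0.07 (adjusted p = 0.187, 171 to 174 TPM in WT and 180.2 to 208 in *Txnip*-/-), and was named after its values were seen.

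Of the secreted enzymes that trim and cross-link collagen, 5 of 8 tested were called, all higher, with a median of 0.51. *Adamts2*, which removes the amino-terminal propeptide of fibrillar procollagens, had 5.22, 3.73 and 3.72 TPM in TN WT and 7.13, 8.56 and 7.75 in TN *Txnip*-/- (difference 0.76 ± 0.13, adjusted p = 0.0123). The groups did not overlap. *Loxl1*, a lysyl oxidase-like cross-linking enzyme, had 6.46, 5.98 and 7.21 and 10.5, 13.6 and 9.69 (difference 0.69 ± 0.13, adjusted p = 0.0165). *Pcolce*, which enhances removal of the carboxy-terminal propeptide, had 37.5, 38.2 and 36.0 and 52.0, 66.5 and 57.0 (difference 0.63 ± 0.09, adjusted p = 0.00865). *Bmp1* and *Loxl2* were the other called genes of this list.

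Genes of collagen uptake and breakdown were also among those called. Of the receptors, 2 of 6 tested were called higher and none lower. These were *Lair1*, an inhibitory collagen receptor of immune cells (0.70 ± 0.14, adjusted p = 0.0244), and *Mrc2*, an endocytic collagen receptor (0.51 ± 0.09, adjusted p = 0.0140). *Lair1* had a mean of 0.824 TPM in TN WT and 1.95 in TN *Txnip*-/-, so it passed the filter of 1 TPM only through the group where it is high, and its call adds no support to the count. Of the breakdown list, 6 of 9 tested were called higher and none lower, with a median of 0.70. *Mmp14*, a membrane-bound collagenase, had 10.1, 8.83 and 8.29 TPM in TN WT and 19.7, 17.5 and 18.3 in TN *Txnip*-/- (difference 0.95 ± 0.09, adjusted p = 0.00297). *Ctsk*, the collagen-degrading cathepsin K, had 5.86, 4.76 and 4.108 and 11.2, 11.1 and 10.9 (difference 1.04 ± 0.11, adjusted p = 0.00351). *Timp1* encodes an inhibitor of these proteases and not a protease, and it had 0.642, 1.27 and 0.950 and 3.94, 5.31 and 1.78 (difference 1.19 ± 0.28, adjusted p = 0.0381). Its TN WT mean of 0.955 TPM was under the filter, so it too was tested only through the group where it is high. The other called genes of this list were *Mmp2*, *Fap* and *Timp2*. Of the TGF-beta list, which holds ligands, receptors, Smads and targets of the main inducer of fibrillar collagen, none of 13 tested was called by limma and 2 had an unadjusted p under 0.05, with a median of 0.05. Of all genes tested at TN, 3306 of 12891 had an unadjusted p under 0.05.

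**Figure D5:**
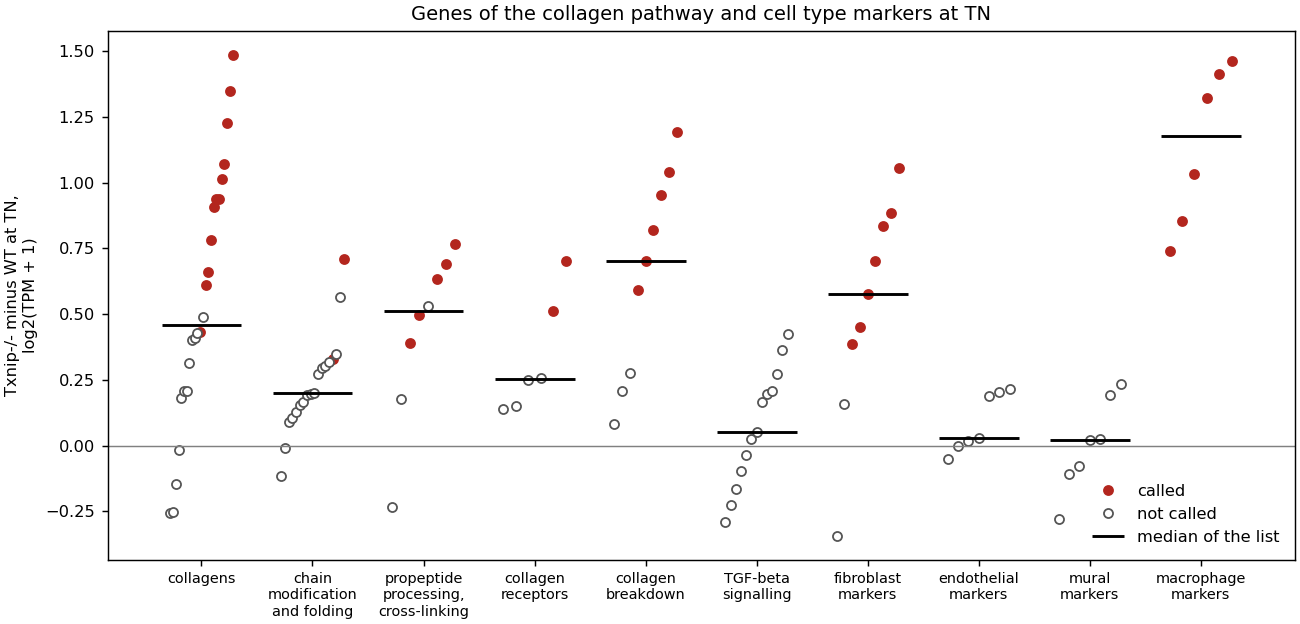
Difference of *Txnip*-/- minus WT at TN in log2(TPM + 1) for each gene tested, by list, with 1 point per gene, filled red where called, and a bar at the median of the list. Collagens, breakdown genes, and fibroblast and macrophage markers reach above 1, while TGF-beta, endothelial and mural genes hold no filled point.

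Markers of the cell types that make collagen moved with it in part. Over all genes tested, 6.49% were called higher and 2.17% lower in *Txnip*-/- at TN, and 0.76% higher and 0.726% lower at RT. An unadjusted p under 0.05 was present in 16% of genes at RT and in 3306 of 12891 at TN. Of 10 fibroblast markers, 9 were tested at TN and 7 called higher in *Txnip*-/-, all but *Pi16* and *Fbln1*, and the summed level of the list was 254 to 305 TPM in TN WT and 387 to 402 in TN *Txnip*-/-. *Pdgfra*, a receptor that defines adipose stromal cells, had 5.47, 4.56 and 4.15 and 7.70, 8.43 and 8.75 (difference 0.70 ± 0.10, adjusted p = 0.00865), a smaller difference than those of *Col1a1*, *Col1a2* and *Col3a1*. At RT, where no collagen was called, no fibroblast marker was called either (2 at an unadjusted p under 0.05), with sums of 143 to 175 in WT and 163 to 183 in *Txnip*-/-. All 6 macrophage markers were called higher at TN, with sums of 111 to 199 in WT and 323 to 445 in *Txnip*-/-, and 2 of 6, *Mrc1* and *Lyz2*, at RT (48.6 to 53.0 and 82.3 to 145). The part of these cells in the collagen differences was not tested.

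Vessel cells, which deposit type IV collagen, were read from their own markers. None of 7 endothelial and 7 mural markers was called at TN by limma (1 of each at an unadjusted p under 0.05), with endothelial sums of 410.5 to 511 TPM in WT and 424 to 552 in *Txnip*-/- and mural sums of 319 to 356 and 317 to 336. At RT, 0 endothelial markers were called (2 at an unadjusted p under 0.05) and 1 mural marker, *Cspg4*, was called lower. Of 5 Schwann cell markers 1, *S100b*, was called lower at each temperature, with sums of 51.9 to 77.5 and 39.3 to 81.3 at TN and 85.0 to 131 and 33.1 to 68.6 at RT. Of 6 brown adipocyte markers 2, *Ucp1* and *Cidea*, were called lower at TN and none at RT (3 at an unadjusted p under 0.05). Skeletal muscle markers summed to 17.9 to 43.5 TPM in RT *Txnip*-/- against 2.32 to 2.84 in RT WT. *Acta1*, *Ckm*, *Myh4*, *Tnnt3* and *Mylpf* were called higher there, but all of these except *Mylpf* had an RT WT mean under 1 TPM and entered the test only through the group where they are high, so their number is no support. At TN, 0 of 2 tested were called, and 1 library of each genotype stood apart. TN WT replicate 2 and TN *Txnip*-/- replicate 2 each had a sum of 14.4 TPM, and the others lay between 2.21 and 3.33. Cartilage and bone markers summed to at most 1.075 TPM in any library, and none was high enough to test. The part of these cells was not tested either.

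The counting could mix some of these genes with others. Exons of *Col3a1* share 141 bases with the annotated gene *Gm47302* on the same strand, those of *Col20a1* share 79 bases with another gene on the same strand, and *Col4a1*, *Col4a2*, *Col5a1* and *Col15a1* share bases with genes on the opposite strand, while the sources used here do not state whether strand was used. In all, 13 of the 44 genes share exon bases with another gene. *Col1a1*, *Col1a2*, *Col6a1* and *Col6a2* share none.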

How the data were processed

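Poly-A RNA of interscapular BAT was read single-end. Per the submitters' processing notes, reads were aligned to mm10 with STAR 2.7.5a and counted on exons with HOMER 4.11.1, and the authors deposited TPM for 1 transcript per gene, the main values here. The authors also deposited, for each temperature, log2-like values of 6 libraries whose transform is not given in the sources used here, with their own p-values and fold changes, which were not used. For 10 collagens at least 1 of these tables holds another transcript than the TPM table, for 6 both. TPM carry no counts, so counting error is unknown.

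Values were tested with limma 3.58.1 (R 4.3.3) on log2(TPM + 1), which understates changes of low genes, at a mean of at least 1 TPM in the libraries of the fit, with trended empirical Bayes moderation and Benjamini-Hochberg adjustment over all genes tested. Genotypes were compared on 6 libraries, temperatures and the interaction on 12 with 4 group means. The interaction was called on the adjusted p alone. The labels do not say which mouse gave each library, so p-values measure the spread between these libraries, which may be technical.

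The members and lists were chosen with earlier results of these data known. Every collagen with a mean of at least 1 TPM was named, and of each pathway list the called genes with the 3 largest differences. Other list and marker genes were named after their values were seen. Alternatives were log2(TPM + 0.1), no filter, upper-quartile normalization, median centring, the replicate block, no trend, other thresholds, 12 libraries in 1 fit, the log-scale values, removal of genes sharing exon bases (class shares only), and leaving out each library. Sequences come from GENCODE M21 and RefSeq, and matplotlib 3.10.9 (Python 3.11.15) drew the figures.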

Additional observations from a re-analysis of the deposited data

How the results depend on the processing

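No collagen changed sign under any alternative in a comparison where it was called. The number of collagens called in *Txnip*-/- against WT at TN was 12, was 11 or 12 under each other setting of the fit, and was 10 to 11 when 1 library was left out. At RT it was 0, was 0 to 0 when 1 library was left out, and became 1 with 12 libraries in 1 fit and 1 on the authors' log-scale values, which is *Col4a5*. For TN against RT it was 19 in WT (17 to 19 with 1 library left out, 15 with median centring) and 19 in *Txnip*-/- (17 to 20, and 21 without the filter). For the interaction it was 0 (0 to 0 with 1 library left out) and 2 at an adjusted p under 0.1, which are *Col6a1* and *Col6a2*. Same-numbered libraries deviated together in no consistent way (r across genes of 0.297, −0.022 and 0.21 at RT and of 0.042, 0.023 and −0.036 at TN), so the numbers were not taken to pair the mice. With the replicate block, 11 collagens were called at TN, 0 at RT, 19 for temperature in each genotype and 0 for the interaction. The deposited columns number the RT and TN libraries differently, so across temperatures the block joins libraries with no stated link. For temperature and the interaction it therefore tests no pairing. Over all genes, the number called varied more. At RT it was 178, against 44 without the filter, 100 with the block, 117 without the trend, 272 with 12 libraries and 2 to 159 with 1 library left out, the lowest without RT WT replicate 2. At TN it was 1116, against 621 without the filter and 456 to 1005 with 1 library left out, the lowest without TN *Txnip*-/- replicate 1. The cause was not tested. The fit was not repeated without the collagens that share exon bases with another gene, which include *Col3a1*, *Col5a1* and *Col15a1* of those called at TN.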

Other observations

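The 20 collagens with a mean under 1 TPM were too low to test, except *Col7a1* between genotypes at RT (0.09 ± 0.16, limma adjusted p = 0.841), and at these levels few reads lie behind each value. *Col7a1*, which encodes the anchoring fibril collagen of skin, had the highest level among them, with 0.772, 1.49 and 1.48 TPM in RT WT, 1.58, 1.253 and 1.245 in RT *Txnip*-/-, 0.425, 0.604 and 0.485 in TN WT and 0.762, 0.743 and 0.689 in TN *Txnip*-/-. Its TN libraries lay below its RT libraries in both genotypes, against the direction of most abundant collagens. With no filter on low TPM it was called lower at TN, by −0.56 in WT (adjusted p = 0.00705) and −0.44 in *Txnip*-/- (adjusted p = 0.0187). *Col6a6*, a further type VI chain, was called higher at TN in *Txnip*-/- without the filter (0.37, adjusted p = 0.0269), with 0.281, 0.329 and 0.232 TPM at RT and 0.770, 0.622 and 0.565 at TN. *Col10a1*, the collagen of hypertrophic cartilage, had 0.114, 0.0870 and 0.129 TPM in RT WT and 0.0150, 0.0340 and 0.0300 in RT *Txnip*-/-, so its groups did not overlap, at levels near 0. *Col6a5* had 0.0920, 0.0640 and 0.123 TPM in TN WT and 0.348, 0.306 and 0.134 in TN *Txnip*-/-. The rest of these genes stayed at or below 0.644 TPM in every library, and none of the 44 collagens was at 0 in all 12 libraries.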
